A study of Mus musculus with 11 samples.

Results

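Mitochondrial fatty acid oxidation was described by 10 genes, taken as a list of symbols that was matched to Ensembl identifiers. All 10 were found among the 38393 genes that each deposited file lists. They include the Cpt1 isoforms Cpt1a, Cpt1b and Cpt1c with Slc25a20 and Cpt2, grouped as the carnitine shuttle that moves fatty acids into the mitochondrion. The others are the acyl-CoA dehydrogenases Acadvl, Acadl and Acadm, and Hadha and Hadhb, the subunits of the trifunctional protein. RNA was sequenced from eyes of C57BL/6 mice (a C57Bl/6J background by the study's methods) aged 1 to 2 months, from which lens and cornea had been dissected away, so that retina, RPE, choroid, sclera and ciliary body were left. There were 5 libraries from wild-type animals (WT) and 6 from miR-211-/- animals (KO), whose alleles lack the precursor of miR-211 in an intron of Trpm1 from the germline on, so that every cell type carries the loss. The controls were littermates of the same age. All KO animals were male and the WT animals were of both sexes, and the labels do not say which WT library is which, so sex and genotype cannot be fully told apart.

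Long-chain fatty acids cannot cross the inner mitochondrial membrane as CoA esters. CPT1 on the outer membrane turns them into acylcarnitines, the carrier Slc25a20 exchanges these for free carnitine, and Cpt2 on the matrix side restores the CoA ester, which then loses carbons in turns of the beta-oxidation spiral. CPT1 is the step that malonyl-CoA inhibits. Cpt1a is the form of liver and most other tissues, Cpt1b that of muscle, heart and brown fat, and Cpt1c a form of neurons that sits mainly at the endoplasmic reticulum. In the eye, the RPE is known to oxidise fatty acids of the photoreceptor outer segments that it takes up.

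In each library 20282241 to 36317673 read pairs fell on genes, and each of the 10 genes had at least 274 expected counts in every library. Mir211 itself had no counts in any library, WT included, so its loss could not be checked here, and its host Trpm1 was read at 429 ± 67.3 CPM (read counts scaled to library size with TMM factors; SD over 5 WT libraries) and, in KO, at 432 ± 19.2 (SD over 6). Markers of rods, cones, Müller glia, RPE and retinal neurons had counts in every library. Markers of tissues outside the list of dissected layers varied far more. The summed level of 14 skeletal muscle markers, led by Atp2a1 and Myh4, lay between 1380 and 12923 CPM, and that of 9 adipocyte markers, led by Car3 and Fabp4, between 35.9 and 622 CPM. Although the cornea had been taken off, 5 markers of cornea and conjunctiva, led by Krt12 and Krt5, summed to between 960 and 7099 CPM, and 5 blood markers, led by Hbb-bs and Hba-a2, to between 145 and 1937 CPM. Lens markers, led by Cryaa and Crybb2, reached 71393 CPM in WT replicate 4, 20698 in KO replicate 3 and 2962 in KO replicate 6, against at most 62.9 in the other libraries. By the kind of column name in a table of the study, WT replicates 1 and 2 and KO replicates 1, 2 and 3 belong to a series named by mouse number, and the other 6 libraries to a series named by age. This says only how the columns are named.

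Cpt1a was the leading Cpt1 isoform of the eye and the steadiest of the 10 genes, whereas Cpt1b was the least steady. On the scale of FPKM, which divides by length and so allows levels of different genes to be set side by side, Cpt1a was the highest of the 3 isoforms in all 11 libraries. Its mean level was 59.5 ± 5.12 FPKM in WT (SD, n = 5), and in KO it was 58.1 ± 6.65 (SD, n = 6). Cpt1b and Cpt1c stood well below it and changed places between libraries.

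Cpt1a lies on chromosome 19 of GRCm38, from 3322334 to 3385733. In the WT libraries its level was 240, 241, 260, 269 and 277 CPM for replicates 1 to 5. In the KO libraries the lowest was 218, the median 240 and the highest 291 CPM. Its highest library was 1.34-fold above its lowest, and the genotypes overlapped almost completely. The fitted log2 fold change of KO against WT was -0.08 (standard error 0.12), with an adjusted p of 1.00 by edgeR's likelihood-ratio test.

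Cpt1b, on chromosome 15 from 89416405 to 89425863, was read at 68.0, 53.5, 11.8, 36.8 and 21.2 CPM in WT replicates 1 to 5. Its KO libraries ran from 12.7 over a median of 20.2 to 59.6 CPM, the last in KO replicate 1. The spread within each genotype was thus wider than the distance between the genotypes, and the highest library was 5.76-fold above the lowest. The log2 fold change was -0.56 (standard error 0.48, adjusted p = 1.00). It rested on single libraries, being -0.25 without WT replicate 1 and -0.99 without KO replicate 1. Gm44502, an annotated gene that starts 3833 bases upstream of Cpt1b, runs through all 9459 bases of its locus on the same strand and was not analysed here. In bulk tissue, fewer cells of a type and less RNA per cell cannot be told apart.

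Cpt1c, on chromosome 7 from 44959372 to 44974851, was read at 32.8, 29.6, 40.4, 37.3 and 36.5 CPM in WT replicates 1 to 5 and at 25.4 to 42.8 CPM in KO, with a KO median of 33.8. An antisense gene, 6530437J22Rik, overlaps it by 3875 bases and was not analysed here. The lowest library for Cpt1c was KO replicate 1, which was the second highest for Cpt1b. The log2 fold change was -0.08 (standard error 0.15, adjusted p = 1.00). It was 0.03 within the 6 libraries of the age series and -0.16 within the mouse-number series.

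**Figure D1:**
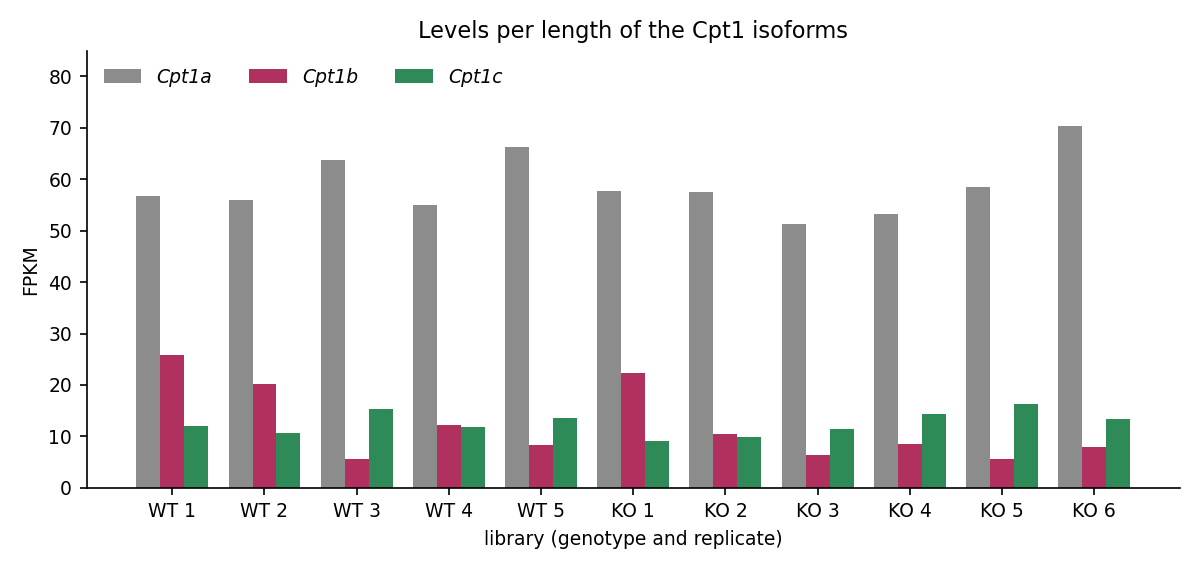
Level of Cpt1a, Cpt1b and Cpt1c in FPKM (y axis) in each of the 5 WT and 6 KO libraries (x axis), 1 bar per gene and library. The Cpt1a bars run from 51.3 to 70.4 FPKM and are the tallest everywhere, while the Cpt1b bars run from 5.57 to 25.7 and exceed those of Cpt1c in 5 libraries.

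Cpt1b exceeded Cpt1c in 5 libraries on the FPKM scale, which were WT replicates 1, 2 and 4 and KO replicates 1 and 2, and it was below Cpt1c in the other 6. Cpt1b made up 27.3% of the summed FPKM of the isoforms in WT replicate 1 and 25.1% in KO replicate 1. In WT replicate 3 it made up 6.57% and in KO replicate 5 6.99%. High and low shares therefore occurred in both genotypes. The highest shares, in WT replicate 1, KO replicate 1 and WT replicate 2 (23.3%), were all in the mouse-number series, and WT replicate 3 and KO replicate 5 are of the age series. KO replicate 3 of the mouse-number series had 9.20%, and WT replicate 4 of the age series 15.5%. The share of Cpt1a ranged from 60.0% to 76.6%, and that of Cpt1c from 10.2% to 20.3%.

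The isoforms were contrasted directly through their log2 FPKM ratios (pseudocount 0.1), with a two-sided exact permutation test of 5 against 6 libraries (462 arrangements) and adjustment over the 3 ratios. The log2 ratio of Cpt1b to Cpt1a was -2.25 ± 1.00 in WT (SD, n = 5) and in KO -2.65 ± 0.71 (SD, n = 6), a difference of -0.40 (exact permutation p = 0.444, adjusted p = 0.795). It was -0.12 without WT replicate 1 and -0.71 without WT replicate 3. For Cpt1b to Cpt1c the means were -0.02 ± 1.08 and -0.41 ± 0.98, a difference of -0.39 (exact permutation p = 0.530, adjusted p = 0.795), which became -0.11 without WT replicate 1 and -0.75 without WT replicate 3. The ratio of Cpt1a to Cpt1c was 2.23 ± 0.12 in WT and 2.24 ± 0.34 in KO, and differed by 0.0075 (exact permutation p = 0.961, also after adjustment). None of the differences was larger than the spread among libraries, where 0.00216 is the smallest p that this design allows. Within the mouse-number series Cpt1b to Cpt1a differed by -0.96 (exact permutation p = 0.300, smallest possible 0.1), and within the age series by -0.15 (p = 0.800, smallest possible 0.1).

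Libraries high in Cpt1b were also high in skeletal muscle transcripts. Across the 11 libraries, log2 CPM of Cpt1b followed the log2 sum of the 14 skeletal muscle markers with Pearson's r = 0.971 and Spearman's rho = 0.982 (permutation p = 1.0e-05 for each, the smallest that 100000 resamples can give; adjusted over 9 relations, 9.0e-05). Without the libraries farthest from the median marker sum, WT replicate 1 and KO replicate 5, r was 0.975. It was 0.954 within the 6 KO libraries (exact permutation p = 0.00278) and 0.973 within the 6 libraries of the age series (exact permutation p = 0.00417). Correlations were given over at least 6 libraries only, and the mouse-number series has 5. All 14 markers had counts in every library. Their sum ran from 1670 to 12923 CPM in WT and from 1380 to 12781 CPM in KO, with a log2 difference of -0.61 between the genotypes (two-sided exact permutation test, p = 0.400). A sum of 6 markers of slow or cardiac muscle, led by Myh7 and Tnnt1, was also highest in KO replicate 1 (217 CPM), WT replicate 2 (189 CPM) and WT replicate 1 (155 CPM), and ran down to 42.0 CPM in WT replicate 3. The part of muscle RNA in the levels of Cpt1b was not tested.

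Cpt1b also rose with the sum of the adipocyte markers, with r = 0.946 and rho = 0.964 (permutation test, adjusted p = 0.00018 and 0.000225), and the 2 marker sums rank the libraries alike at the top, where WT replicates 1 and 2 and KO replicate 1 are highest in both. Of the 9 adipocyte markers, Lep had no count in 3 libraries and the other 8 were read throughout. Their sum ran from 35.9 to 622 CPM in WT and from 41.3 to 348 in KO. The sum of 5 brown adipocyte markers, led by Cox8b and Ucp1, had the same libraries at the top, with 135 CPM in KO replicate 1, 114 in WT replicate 1 and 109 in WT replicate 2, and ranged 12.2-fold. Elovl3 had no count in 3 libraries but reached 37.1 CPM in KO replicate 1, a large part of the sum there. Car3 and Cox8b lead these sums, and whether they were read from fat alone was not tested. The part of fat RNA in the levels of Cpt1b was not tested either. Against the sum of 8 retinal neuron markers, led by Snap25 and Syt1 and lying between 1846 and 2934 CPM in WT and between 2285 and 3177 CPM in KO, Cpt1b gave r = -0.863 and rho = -0.900 (adjusted p = 0.00108 and 0.00141, permutation test). Within the 6 KO libraries this r was -0.745 (exact permutation p = 0.0806), which did not pass 0.05.

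Cpt1c ran the other way. Its r with the muscle sum was -0.759 and its rho -0.673 (permutation test, adjusted p = 0.0178 and 0.0424), and within the 6 KO libraries r was -0.928 (exact permutation p = 0.00972). Within the age series r was -0.760 (exact permutation p = 0.0875), which did not pass 0.05. With the retinal neuron markers Cpt1c gave r = 0.626 and rho = 0.736. The first missed the threshold after adjustment (permutation test, adjusted p = 0.0687) and the second passed (0.0294). Within the KO libraries r was 0.960 (exact permutation p = 0.00417). With the adipocyte markers r was -0.613 and missed the threshold, whereas rho was -0.691 and passed (permutation test, adjusted p = 0.0715 and 0.0420). Within the KO libraries r with the adipocyte markers was -0.897 (exact permutation p = 0.00972).

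Cpt1a had no relation past 0.05 with any of the 3 marker sums, with r between -0.07 and 0.05 (permutation test, adjusted p = 0.941 for each). Within the age series its r was 0.26 with muscle, 0.28 with adipocyte and -0.54 with retinal neuron markers, none past 0.05 (exact permutation p = 0.624, 0.585 and 0.268). Over all 11 libraries these r were -0.29, -0.37 and 0.36 without TMM factors and -0.31, -0.38 and 0.32 on log2 FPKM, likewise none past 0.05 before adjustment (permutation test, p from 0.247 to 0.384).

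**Figure D2:**
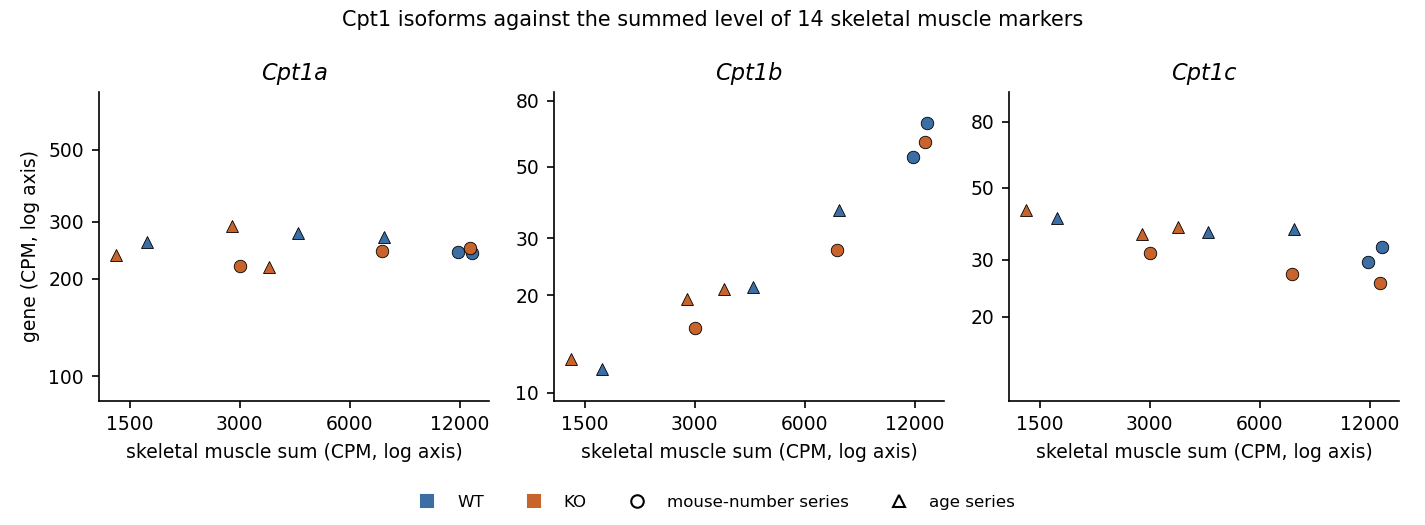
Level of each Cpt1 isoform in CPM (y axis, log scale spanning the same fold in each panel) against the summed CPM of 14 skeletal muscle markers (x axis, log scale), 1 point per library, with WT in blue and KO in orange, circles for the mouse-number series and triangles for the age series. Cpt1b climbs with the muscle sum from 11.8 to 68.0 CPM in libraries of both genotypes, Cpt1a stays between 218 and 291 CPM, and Cpt1c slopes down.

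Beyond the members, 5 genes were named for each isoform by the highest Pearson's r of log2 CPM over the 11 libraries. Closest to Cpt1b were Crat (r = 0.995), the carnitine acetyltransferase, Fem1a (0.993), Jsrp1 (0.990), which belongs to the junctional sarcoplasmic reticulum of muscle, Coq8a (0.989), which serves coenzyme Q synthesis, and Gpihbp1 (0.989), which anchors lipoprotein lipase on capillaries. Crat ranged from 32.6 to 120 CPM. Closest to Cpt1a were Pacsin2 (0.918), Gli2 (0.892), Gm20634 (0.869), Klf16 (0.851) and Hist1h1e (0.849), all at lower values of r than the leading genes of the other isoforms. Closest to Cpt1c were Mindy4 (0.968), Map1s (0.966), Usp35 (0.961), Gm26694 (0.961) and Acd (0.961). These are the top ranks among 15767 genes and describe these libraries only.

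The remaining genes of the carnitine shuttle were low. Slc25a20, the carnitine-acylcarnitine carrier on chromosome 9 from 108662088 to 108684641, was read at 31.6, 25.6, 12.8, 22.5 and 18.2 CPM in WT replicates 1 to 5 and at 11.2 to 32.4 CPM in KO, with a KO median of 16.5. Its highest library was KO replicate 1 and its lowest KO replicate 5. The log2 fold change was -0.28 (standard error 0.29, adjusted p = 1.00), and it was -0.11 without WT replicate 1 and -0.52 without KO replicate 1.

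Cpt2, on chromosome 4 from 107903981 to 107923610, had the largest log2 fold change of the 10 genes, -0.60 (standard error 0.28). It was the only one with an unadjusted p under 0.05 in edgeR's likelihood-ratio test (0.0329, adjusted p = 1.00). Its WT libraries were read at 39.8, 30.04, 21.8, 73.3 and 24.9 CPM for replicates 1 to 5, and its KO libraries at 22.7 to 31.8 CPM with a median of 24.0. A single WT library, replicate 4, stood far above the rest, and the other 4 WT libraries overlapped with KO. Without WT replicate 4 the log2 fold change was -0.21. WT replicate 4 was also the library with 71393 CPM of lens markers, whereas KO replicate 3, with 20698 CPM of lens markers, had Cpt2 at 24.6 CPM; the part of lens RNA in the level of Cpt2 was not tested.

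The acyl-CoA dehydrogenases take the first step of each turn, Acadvl on very long chains, Acadl on long chains and Acadm on medium chains. Acadl, on chromosome 1 from 66830839 to 66863277, varied most. It was read at 113, 91.3, 30.6, 72.8 and 45.1 CPM in WT replicates 1 to 5. Its KO libraries ran from 25.6 over a median of 44.6 to 97.7 CPM, and its highest level was 4.42-fold above its lowest. The order of the libraries was nearly that of Cpt1b, with WT replicate 1, KO replicate 1 and WT replicate 2 at the top. The log2 fold change of Acadl was -0.45 (standard error 0.38, adjusted p = 1.00), with -0.21 when WT replicate 1 and -0.73 when KO replicate 1 was left out.

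Acadvl, on chromosome 11 from 70010183 to 70015411, ran from 105 to 199 CPM in WT and from 108 to 182 CPM in KO, and the log2 fold change was -0.19 (standard error 0.19). The last 2119 bases of its locus overlap Dvl2 on the opposite strand, which was read at 35.9 to 44.5 CPM. The libraries were not stated to keep strand, so reads of the overlap cannot be assigned with certainty. Other overlapping genes were barely read, Gm15793 in Acadl at up to 0.327 CPM and Garem2 at the end of Hadha at up to 1.90 CPM, and Mir324, Mir1960 and Gm27934 had no counts. Acadm, on chromosome 3 from 153922357 to 153944632, ran from 93.3 to 158 CPM in WT and from 79.5 to 153 CPM in KO, and the log2 fold change was -0.17 (standard error 0.21). The adjusted p was 1.00 for both. Without WT replicate 1 the log2 fold change was -0.07 for Acadvl and -0.08 for Acadm, and without KO replicate 1 it was -0.30 and -0.29.

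Hadha and Hadhb encode the alpha and beta subunits of the trifunctional protein, which carries out the later steps of each turn on long chains. They lie head to head on chromosome 5, Hadha from 30118304 to 30155162 on the minus strand and Hadhb from 30155248 to 30184593 on the plus strand. Their starts as annotated by Gencode are 86 bases apart. The 85 bases between these Gencode starts are shown because both genes, as annotated there, read out from them. They lie at chr5:30155163-30155247 of GRCm38.p6 (plus strand, bases read from the RefSeq promoter window of Hadhb) and have a GC content of 69.4%.

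Hadha-Hadhb interval: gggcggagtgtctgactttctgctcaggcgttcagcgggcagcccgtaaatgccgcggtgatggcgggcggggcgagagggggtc

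No base is in capitals because neither AAGGTCA, the element that estrogen-related receptors bind, nor CAGCTG, an E-box read by muscle regulators, occurs in it on either strand. Promoters were searched from 250 bases before to 50 bases after the RefSeq start site, which can differ from the Gencode starts given here. The window of Hadha was 30154931 to 30155230 and that of Cpt1a 3323051 to 3323350. AAGGTCA was found on either strand in 4.72% of 32851 promoters and in 1 of the 9 members with a promoter entry, Acadm. CAGCTG was found in 16.3% of all promoters and among the members in that of Cpt1a. The direct repeat that PPAR receptors bind, AGGTCA in tandem with 1 base between the copies, was found with at most 2 letters changed in 3.86% of all promoters and among the members in that of Slc25a20. The latter motif can overlap the first. The promoter of Cpt1b was not searched here.

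Hadha was read at 227, 178, 115, 153 and 122 CPM in WT replicates 1 to 5, and at 111 to 195 CPM in KO with a median of 123. Hadhb was read at 191, 158, 71.5, 114 and 92.0 CPM in WT replicates 1 to 5, and at 63.5 to 158 CPM in KO with a median of 85.7. Both had their highest level in WT replicate 1 and their lowest in KO replicate 5. The range of Hadhb was 3.003-fold and that of Hadha 2.05-fold. The log2 fold change was -0.22 (standard error 0.21) for Hadha and -0.36 (standard error 0.29) for Hadhb, each with an adjusted p of 1.00. It was -0.06 for Hadha and -0.16 for Hadhb without WT replicate 1, and -0.36 and -0.55 without KO replicate 1.

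**Figure D3:**
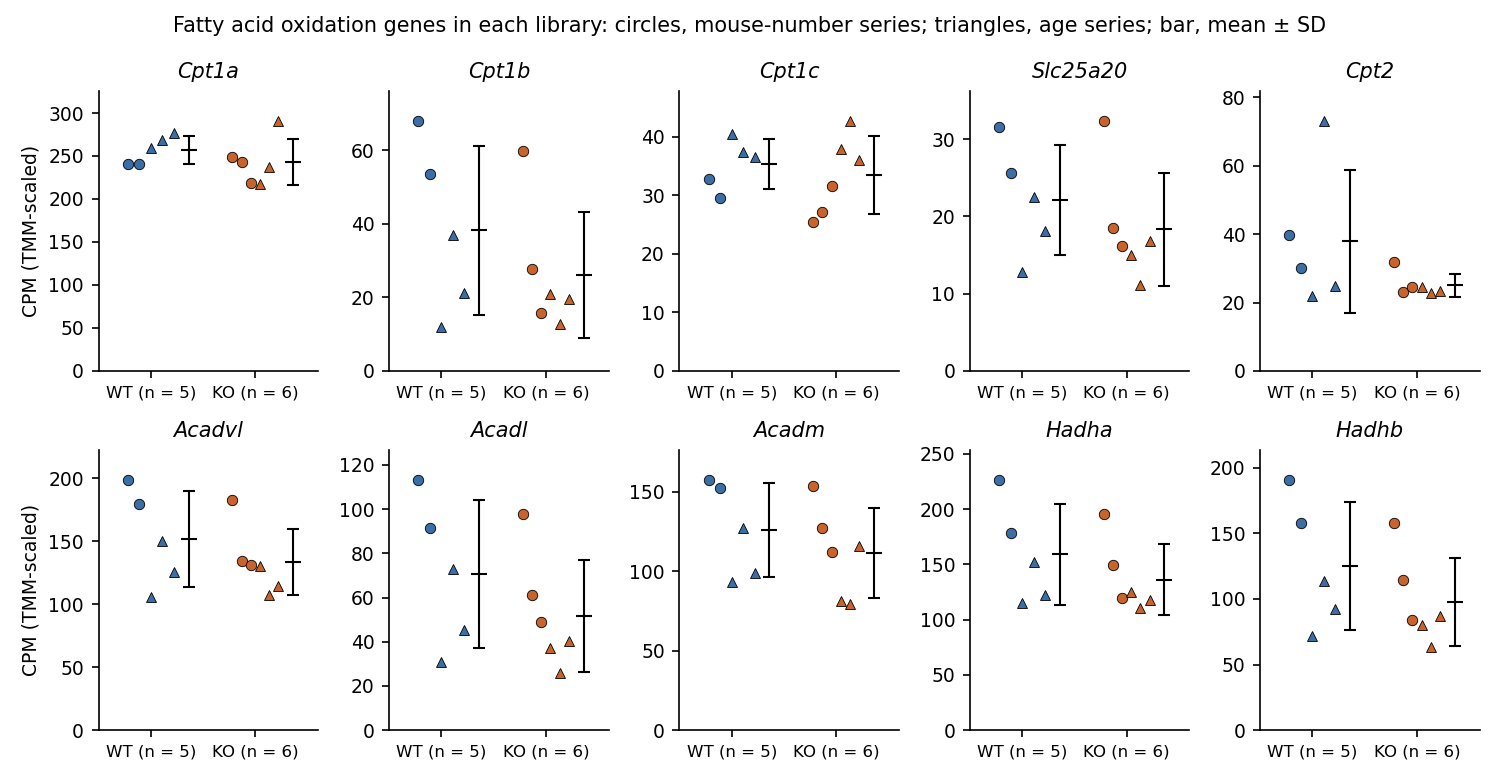
Level of each of the 10 genes in CPM (y axis, from 0) in the 5 WT (blue) and 6 KO (orange) libraries, with circles for the mouse-number series, triangles for the age series, and the mean ± SD of each genotype beside its points. Except for Cpt1a, Cpt1c and Cpt2, the highest libraries of each panel are WT replicate 1, WT replicate 2 and KO replicate 1, and the genotypes overlap in every panel.

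Like Cpt1b, most of the other members followed the skeletal muscle sum. This was tested after the relation of the isoforms was known, in 7 relations over the 11 libraries. Pearson's r was 0.972 for Acadl, 0.966 for Hadhb, 0.958 for Slc25a20, 0.945 for Acadvl, 0.927 for Hadha and 0.884 for Acadm, with Spearman's rho between 0.882 and 0.991 (permutation test, adjusted p at most 0.000723 for r and 0.000875 for rho). Without WT replicate 1 and KO replicate 5 these r lay between 0.810 and 0.969. Within the age series r was between 0.661 for Acadm (exact permutation p = 0.151) and 0.964 for Slc25a20 (exact permutation p = 0.00556). Cpt2 gave r = 0.558 and rho = 0.845, of which only the rank relation passed 0.05 (permutation test, adjusted p = 0.0582 and 0.00198). Among all 15767 genes tested, the markers included, 541 (3.43%) had an r above 0.9 with the muscle sum, and among the 10 members 6, Cpt1b, Slc25a20, Acadvl, Acadl, Hadha and Hadhb. The libraries share their depth and tissue makeup across genes, and the genes are not independent of each other.

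Set in order by mean FPKM over the 11 libraries, Acadvl led with 86.5 ± 12.9 FPKM (SD, n = 11) and exceeded the next gene, Acadm at 65.02 ± 13.9, in all 11 libraries. Acadm, Cpt1a at 58.8 ± 5.75, Hadha at 58.6 ± 12.8 and Hadhb at 56.3 ± 20.3 followed in this order, in which each exceeded its next neighbour in 6 to 8 of the 11 libraries, so that neighbours did not differ beyond their spread. Hadhb exceeded Acadl, at 32.1 ± 15.3 FPKM, in all 11 libraries, and Acadl exceeded Cpt2 in all 11. Cpt2, Cpt1c, Cpt1b and Slc25a20, between 13.4 and 11.5 FPKM on average, changed places from library to library. WT replicate 1 was the highest library for 6 of the 10 genes, and KO replicate 5 the lowest for 5.

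Between the genotypes no member was called. With edgeR's likelihood-ratio test on 15767 genes and an adjusted p under 0.1, 1 gene of all (0.00634%) was called and 0 of the 10 members. An unadjusted p under 0.05 was reached by 330 genes (2.09%; lower in KO 279, 1.77%) and by 1 member, Cpt2, which was lower. With edgeR's quasi-likelihood test no gene was called and no member had an unadjusted p under 0.05, and with DESeq2 2 genes and no member were called, with Cpt2 again the only member under 0.05 before adjustment. The ranges of WT and KO libraries did not overlap for 29 genes (0.184%) and for 0 of the members.

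All 10 members had a fitted log2 fold change below 0, against 48.9% of all genes tested. Without TMM factors that share of all genes was 34.4%, and all 10 members stayed below 0. Their median was -0.25, beside 0.0027 over all genes. The members are not independent of each other, as 6 of them rise and fall with the same marker sum, and a shared direction is therefore no replication. The median was -0.11 without WT replicate 1 and -0.44 without KO replicate 1. Without KO replicate 1, 5 members had an unadjusted p under 0.05 and were lower in KO (Cpt1b, Slc25a20, Cpt2, Acadl and Hadhb). The same held for 3.92% of the 15689 genes then tested. With the library series as a covariate there were 3 such members (Cpt2, Acadl and Hadhb), against 5.23% of genes. Within the mouse-number series there was 1 (Hadhb), against 3.26%, and with the replicate number as a block 2 (Cpt1b and Hadhb), against 2.26%. Each of these shares counts only genes lower in KO. Cpt2 was under 0.05 in only 4 of the 11 fits that leave out 1 library. Every adjusted p of a member stayed above 0.1, and the lowest of any member in any fit was 0.647, that of Acadl with the library series as a covariate. The skeletal muscle sum, lower in KO by 0.61 on the log2 scale, moved in the same direction as the members. So did the sums of adipocyte markers (-1.21, exact permutation p = 0.201), brown adipocyte markers (-0.77, exact permutation p = 0.344), blood markers (-0.69, exact permutation p = 0.353) and RPE markers (-0.08, exact permutation p = 0.465). These differences are between means of the log2 sums. Higher in KO on that scale were the sums of slow or cardiac muscle (0.08), Müller glia (0.01), rod (0.12), retinal neuron (0.13), cornea and conjunctiva (0.20) and lens markers (0.45). Their exact permutation p was at least 0.368. Mean CPM went the other way for slow or cardiac muscle (117 in WT, 114 in KO) and for lens markers. The lens mean was 14300 CPM in WT, where replicate 4 alone had 71393, and 3966 CPM in KO. The cone sum differed by -0.00021. The part of all these sums in the fold changes was not tested.

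**Figure D4:**
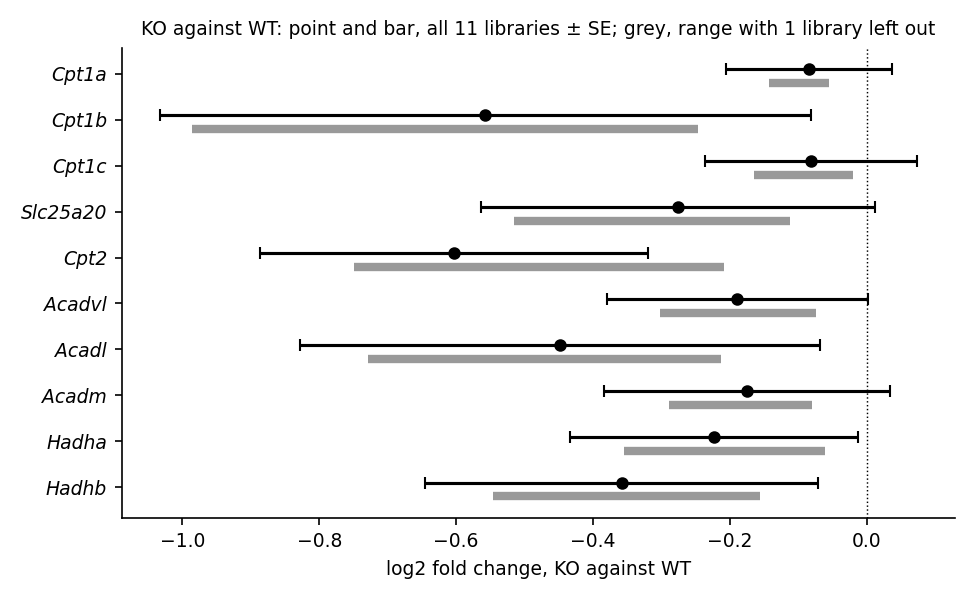
Log2 fold change of KO against WT (x axis) of the 10 genes (y axis), with points and black bars for the value and standard error from all 11 libraries and grey bars for the range when each library is left out in turn. All points lie below 0, from -0.08 for Cpt1c to -0.60 for Cpt2, and the grey bar of Cpt1b spans -0.99 to -0.25.

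The deleted miRNA and its paralog are shown because a match to their seed is the feature by which transcripts could be paired with them. Capitals mark the seed, bases 2 to 8 of the mature strand in RefSeq.

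mmu-miR-211-5p: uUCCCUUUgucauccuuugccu

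mmu-miR-204-5p: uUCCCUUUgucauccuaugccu

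The mature strands differ at 1 base (U17A, counted from the 5′ end of miR-211-5p) and share the seed. Its match, AAAGGGA, was looked for in the longest annotated 3′ untranslated region of each gene. It occurred in 16.6% of the 14511 tested genes that have such a region and in 1 of the 10 members, Cpt1a, once in 1892 bases. The regions of all these genes had a median of 1210 bases. Hadha had 1511 bases, and the members other than Cpt1a and Hadha had 113 to 747, so the shares come from regions of unlike length. The site lies at chr19:3384099-3384105 of GRCm38 on the plus strand and is printed in capitals with the bases around it.

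Cpt1a site: tcctaatggatAAAGGGAtttaaatgctg

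The gene that holds the match was among those with the smallest log2 fold changes, -0.08, and the 9 members without it had log2 fold changes from -0.60 to -0.08. Whether miR-211 acts on this site was not tested. By the study, miR-204, which shares the seed, was still expressed in the KO.

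The rest of fatty acid metabolism was read from a list of 49 further genes in 7 roles, of which all but Acaa1b passed the filter. None of the 48 was called, and none had an unadjusted p under 0.05. There were 34 with a log2 fold change below 0 and 14 above, with a median of -0.09. Over all genes tested, 48.9% were below 0 and 2.09% had an unadjusted p under 0.05 in edgeR's likelihood-ratio test. The 3 genes of electron transfer from the spiral to the respiratory chain (Etfa, Etfb, Etfdh) had a median of -0.21, led by Etfb at -0.34 (standard error 0.30). The 10 other enzymes of the spiral had a median of -0.17, 8 of them below 0, led by the short-chain dehydrogenase Acads at -0.38 (standard error 0.33). Uptake and activation, 11 genes of which 7 were below 0, had a median of -0.21, led by the fatty acid transporter Cd36 at -0.82 (standard error 0.70).

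Differences between the roles were not tested. Of the 5 genes that set malonyl-CoA, the inhibitor of CPT1, Acacb had the largest log2 fold change at -0.48 (standard error 0.49), and the median was -0.07. The transcription factors and coactivators had a median of -0.07, led by Ppard at -0.13 (standard error 0.11). The 5 genes of ketone bodies had a median of -0.08. For the 9 genes of peroxisomal oxidation that were tested the median was -0.04, led by Ehhadh at -0.28 (standard error 0.26).

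Pearson's r with the skeletal muscle sum, given as a description, was above 0.9 for all 3 genes of electron transfer, for 5 of 10 other spiral enzymes and for 4 of 11 genes of uptake and activation, Cd36, Fabp3, Acsl1 and Crat. It was above 0.9 for Acacb and for Oxct1, and for none of the transcription factors and coactivators or the peroxisomal genes. Cd36 had an r of 0.987 and ranged 13.3-fold over the libraries. Acsl6 and Ppargc1b ran against muscle, with r of -0.779 and -0.728.

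**Figure D5:**
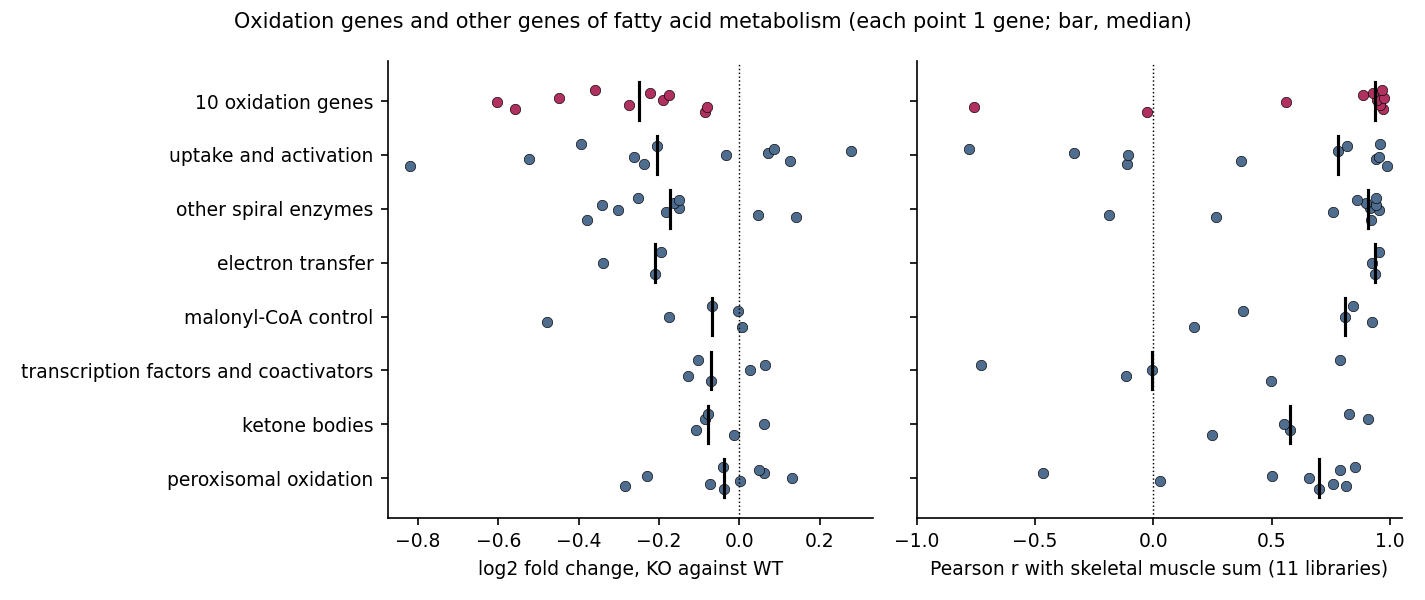
Left, log2 fold change of KO against WT (x axis), and right, Pearson's r with the summed skeletal muscle markers over 11 libraries (x axis), for the 10 genes and for 48 further genes grouped by role (y axis), 1 point per gene and a bar at each median. The medians on the left lie between -0.25 and -0.04, and those on the right reach 0.936 for the 10 genes and 0.934 for electron transfer against -0.0055 for transcription factors and coactivators.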

How the data were processed

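Paired reads of 100 nt from each library had been aligned and assigned to Gencode M4 genes (GRCm38) by the authors with RSEM 1.2.19. The authors deposited for each gene an expected count, not normalized, and an FPKM value, which RSEM scales by effective length and library. Depth was 20282241 to 36317673 read pairs per library, so that 1 CPM is at least 20.3 read pairs. Groups came from the labels.

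Expected counts were rounded, and the 15767 genes that reached 1 CPM in 5 or more libraries were fitted with edgeR 4.0.16 in R 4.3.3 (TMM, likelihood-ratio test, genotype as the only term; Benjamini-Hochberg over all genes, threshold 0.1). The study's methods name edgeR's generalized linear model. The likelihood-ratio test was taken because the study's reported results hold likelihood-ratio statistics, and the normalization was chosen here. Values are CPM on TMM-scaled sizes, and log2 CPM has a prior count of 2. FPKM served to compare genes with each other. Nothing in the labels says whether replicates shared a litter. p-values measure the spread between animals as labelled. Tests were checked on simulated counts. Symbols and positions came from Gencode M21, which matched 95.4% of identifiers.

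The 10 genes, the lists and the tests were chosen with earlier results of these data known. Named are all 10 genes, the pathway gene with the largest change per role, the leading 2 markers of lists the text uses, the 5 genes most like each isoform, overlapping or head-to-head genes, Mir211 and Trpm1. Etfa, Etfdh, Fabp3, Acsl1, Oxct1, Acsl6 and Ppargc1b were named after their values had been seen. A gene that this rule takes from the pathway list is not reported here. Library series were found by matching counts to the columns of a table of the study, to at most 0.201% variation in ratio against at least 24.5% for the next column. Seed matches, promoter motifs, the age-series relations and the 7 further muscle relations were added after the data had been seen. The authors' fold changes and p-values were not used.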

Additional observations from a re-analysis of the deposited data

Results flagged for a closer look

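In the 6 KO libraries, KO replicate 1 stood apart from the others for 4 of the 10 genes, at 59.6 CPM for Cpt1b (next library 27.6), 32.4 CPM for Slc25a20 (next 18.4), 31.8 CPM for Cpt2 (next 24.6) and 182 CPM for Acadvl (next 134). In each case the gap to the nearest library was a larger part of the group's range than Dixon's 95% critical value allows. There were 26 such groups tested, and chance flags about 1 in 20. The flagged genes share 1 library. Cpt1b, Slc25a20 and Acadvl had an r above 0.9 with the skeletal muscle sum and Cpt2 one of 0.558, and of that sum KO replicate 1 had 12781 CPM, against 1380 to 7367 CPM in the other KO libraries; the part of muscle RNA in these levels was not tested.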

How the results depend on the processing

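None of the 10 genes was called in any fit, all 10 were lower in KO in every fit except within the age series (9, with Cpt1c at 0.028), and the relations of Cpt1b with its 3 marker sums and the ratios of Cpt1b kept their direction and side of the threshold in the alternatives run on them; within the KO libraries alone, r of Cpt1b with retinal neuron markers did not pass 0.05. The count of all genes called, 1, was 0 with the quasi-likelihood test, 2 with DESeq2 and with the filter of at least 1 count in any library, 10 with the library series as a covariate, 2 within the mouse-number series, 36 within the age series, and 1 to 11 with 1 library left out (11 without KO replicate 1, 2 without WT replicate 2). With the replicate number as a block, without KO replicate 6, 10 genes and no member were called. Same-numbered libraries deviated together with correlations from -0.332 to 0.633, with a mean of 0.223 against -0.045 for different numbers. Of 5 WT libraries, 3 resembled most the KO library of their own number. These values do not settle whether the numbers mark pairs, and the main fit did not take them as pairs. The log2 ratio of Cpt1a to Cpt1c was -0.020 over the 5 same-numbered pairs of this block, and -0.075 to 0.088 with 1 library left out. With 1 library left out, r of Cpt1a was -0.13 to 0.13 with muscle, -0.25 to 0.15 with adipocyte and -0.046 to 0.23 with retinal neuron markers, and within the age series 0.26, 0.28 and -0.54. For Cpt1c, r with adipocyte markers was -0.70 to -0.54 and with retinal neuron markers 0.51 to 0.81, no longer under an unadjusted 0.05 in 8 of 11 cases each; within the age series r was -0.76 with muscle, -0.40 with adipocyte and 0.70 with retinal neuron markers, none under 0.05 with 6 libraries. Fits without a library or within a series have fewer samples, and the cause of other shifts was not tested. At this depth each gene had at least 274 expected counts in every library, and the common biological coefficient of variation over all genes was 26.1%.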
